A study of Mus musculus with 9 samples.

Results

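Brain RNA of the HPYD group was compared with brain RNA of the control group on 6 of the 9 GeneChip Mouse Gene 1.0 ST arrays of the series, 3 in each group, over all 19938 genes that had a probe set with a single gene symbol, out of 35556 probe sets. The HPYD group consisted of APP/PS1 transgenic mice, bought at 8 months of age. Their background is described only as the same as that of the controls. They received HPYD, a peptide designed to break β-sheets, through the nose as 5 μL of a 33 mg/mL solution in saline per day for 30 days. The control group consisted of wild type C57/6J mice, described as matched in age and background, which received the same volume of saline. Brains were taken after a water maze test. The groups thus differed both in the transgenes and in the peptide, and the comparison shows what differed from control under treatment without separating the 2 factors. The 3 arrays of the model group, APP/PS1 mice given saline, entered the fit for the shared estimate of spread and are given beside the results. Neither the APP/PS1 line, the promoter of its transgenes nor the sex of the mice is stated. Whether each array held RNA of its own mouse is not stated either, and the p-values rest on the variation from array to array alone, which may be technical.

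Mice with APP and PS1 transgenes overproduce amyloid-β and lay down plaques in the brain as they age. Microglia that gather around plaques take up a state that depends on the receptor TREM2 and its signalling partner TYROBP, in which genes of lysosomal proteases, lectins, chemokines and lipid handling are raised. Astrocytes near plaques raise the intermediate filament GFAP. In whole tissue, fewer cells of a type and less RNA per cell cannot be told apart.

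The array titled HPYD group 3 went against its label, and the counts are therefore given with and without it. App, which encodes the precursor of amyloid-β, had log2 values of 12.57, 12.56 and 12.62 in control group 1 to 3, 12.98 and 13.01 in HPYD group 1 and 2, but 12.53 in HPYD group 3. Prnp encodes the prion protein, and its promoter drives the transgenes of a common APP/PS1 line. It was 11.78, 11.81 and 11.76 in the control arrays, 12.54 and 12.47 in HPYD group 1 and 2, but 11.52 in HPYD group 3. The first 2 HPYD arrays lay above all control arrays in both genes, and the remaining one lay below all of them. Xist, the RNA that silences an X chromosome in females, was 5.22, 5.20 and 5.69 in the control arrays, 11.33 and 11.47 in HPYD group 1 and 2, but 5.22 in HPYD group 3. The Y-linked genes Kdm5d, Uty and Eif2s3y were 7.77, 7.62 and 7.64, 7.97, 8.22 and 8.17, and 8.18, 7.57 and 7.83 in the control arrays. They were 5.03 and 5.23, 4.25 and 3.85, and 3.80 and 3.63 in HPYD group 1 and 2, but 7.84, 8.20 and 7.96 in HPYD group 3. HPYD group 1 and 2 therefore carried the sex-linked pattern of female mice, as did all 3 model arrays, whereas all control arrays and HPYD group 3 carried that of males, and sex and group cannot be told apart in the fit without HPYD group 3.

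Across the series the array medians lay between 6.69 and 6.82. HPYD group 3 correlated with the control arrays at a Pearson r of 0.982 to 0.986 over all probe sets. The range was 0.992 to 0.995 among the control arrays and 0.989 to 0.995 for HPYD group 1 and 2 with control. Neuronal, glial and endothelial genes were high in all HPYD arrays, with Snap25 at 13.24, 13.22 and 13.08 and Mbp at 12.13, 12.16 and 12.07, so the labelled tissue was present. Genes of skeletal muscle and granulocytes were raised in HPYD group 2 as well as in model group 1 and 2, and genes of cerebellar granule cells were raised in HPYD group 3 and model group 2. Those values stand below beside the results they touch.

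**Figure D1:**
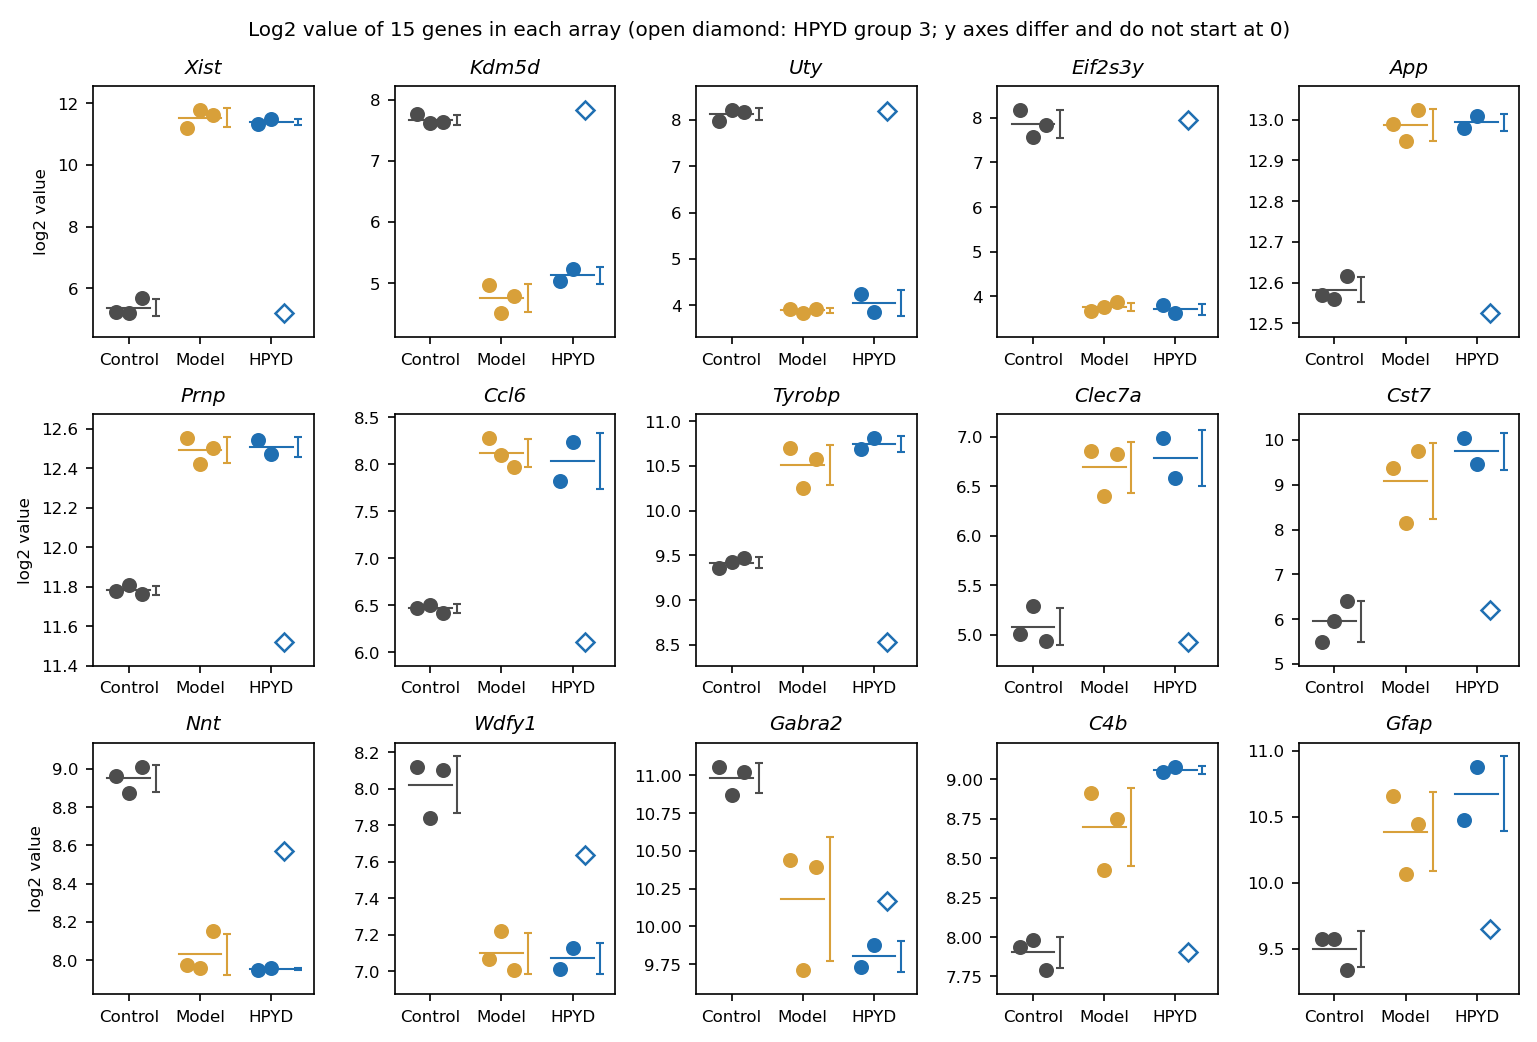
Log2 values of 15 genes in each of the 9 arrays, by group. Filled points are arrays, the open diamond is HPYD group 3, lines are group means and bars are SDs, both without HPYD group 3. HPYD group 1 and 2 lie apart from the control arrays in every panel, while HPYD group 3 lies with the control arrays or beyond them except in Nnt, Wdfy1 and Gabra2, where it lies between the groups, and in Gfap, where it lies just above the highest control array.

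With all 9 arrays in limma's fit, 0 of 19938 genes (0%) passed an adjusted p of 0.05 for HPYD against control, while 646 (3.24%) had an unadjusted p under 0.05, of which 399 (2%) were higher and 247 (1.24%) lower in the HPYD group. With all arrays shifted to one median these were 285 and 364, and with quantile normalization 362 and 347, so the balance of directions depended on the scaling. The HPYD mean was above the control mean in 54.3% of genes. The 3 HPYD arrays did not overlap the 3 control arrays in 1899 genes (9.52%), 953 of them (4.78%) above and 946 (4.74%) below. Without HPYD group 3, 8 genes (0.0401%) passed the threshold. Xist, Ccl6, Prnp and Tyrobp were higher, and Uty, Eif2s3y, Kdm5d and Nnt were lower. An unadjusted p under 0.05 was then found for 451 genes (2.26%), 306 (1.53%) higher and 145 (0.727%) lower, or 251 and 185 after the shift to one median. The 2 remaining HPYD arrays did not overlap the control arrays in 3072 genes (15.4%), 1459 (7.32%) above and 1613 (8.09%) below. Under random group labels, full separation has a probability of 0.1 with 3 arrays against 3, both directions together. With 2 against 3 it is 0.1 in each direction. None of the shares exceeded these, and the rise without HPYD group 3 cannot be read as a larger difference. The median difference over all genes was 0.01 with and -0.01 without HPYD group 3.

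**Figure D2:**
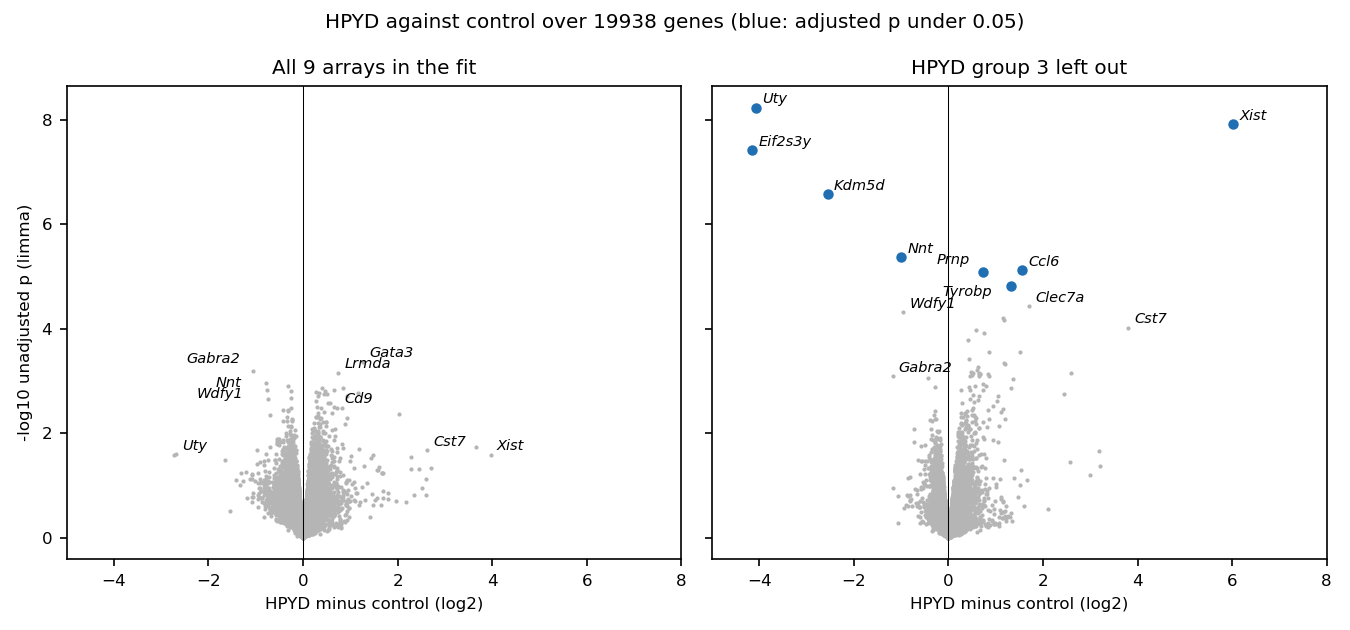
Difference between the HPYD and control groups (log2, x axis) and unadjusted p of limma's moderated test (-log10, y axis) for 19938 genes, with all 9 arrays on the left and without HPYD group 3 on the right. Genes past an adjusted p of 0.05 are blue, and the 8 of them appear only in the right panel.

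Of the 8 genes that passed without HPYD group 3, 4 were sex-linked. Xist rose by 6.03 (standard error 0.21), or 65.3-fold, with an adjusted p of 0.000119 from limma. The Y-linked Eif2s3y, Uty and Kdm5d differed by -4.15, -4.07 and -2.55, with adjusted p of 0.000249, 0.000115 and 0.00133. Among the fits that left out a further array, these 4 genes passed in every one.

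Prnp was 1.65-fold higher without HPYD group 3, with a log2 difference of 0.72 (standard error 0.06) and an adjusted p of 0.0232 from limma. App was 1.33-fold higher, at 0.41 (standard error 0.06), and missed the threshold with an adjusted p of 0.203. Prnp passed in 1 of the 8 fits that left out a further array, the one without model group 2, with adjusted p up to 0.249 in the others. It also missed the threshold with only the HPYD and control arrays in the fit. The probe sets cannot tell a transgene from the mouse gene where their sequences match. The 14 measured genes of amyloid precursor processing and the secretases had a median difference of 0.03, and App was the only member with an unadjusted p under 0.05. Among 18 genes of amyloid clearance the median was 0.00, with 0 members at that level. Over all arrays 13 of the 18 were higher, by a median of 0.07, with 2 at that level, where 54.3% and 3.24% of all genes were. All 3 HPYD arrays lay above control in A2m and Abca1, which differed by 1.30 and 0.24 (standard errors 0.54 and 0.10, adjusted p 0.86 from limma). A2m was 7.60, 7.96 and 7.32 in the control and 8.27, 8.58 and 9.93 in the HPYD arrays. Mme, the gene of the amyloid-degrading protease neprilysin, was 7.59, 7.38 and 7.40 in the HPYD arrays and 7.78, 7.64 and 8.28 in the control arrays, so that all 3 HPYD arrays lay below all control arrays, with a difference of -0.45 (standard error 0.19) over all arrays and an adjusted p of 0.86 from limma.

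Nnt, the mitochondrial enzyme that regenerates NADPH, was the only gene of the 8 in which HPYD group 3 lay beyond all control arrays on the same side as HPYD group 1 and 2. It was 8.96, 8.87 and 9.01 in the control arrays and 7.95, 7.96 and 8.57 in HPYD group 1 to 3. Without HPYD group 3 it fell by 1.00 on the log2 scale (standard error 0.08, adjusted p 0.0172 from limma), which is 2-fold lower. Nnt passed in 2 of the 8 fits that left out a further array, those without model group 2 or 3, with adjusted p up to 0.261 in the others, and it missed the threshold with only the HPYD and control arrays in the fit. Over all arrays the difference was -0.79 (standard error 0.16, adjusted p 0.86). Gabra2, a subunit of the GABA-A receptor, was 11.06, 10.87 and 11.02 in the control arrays and 9.73, 9.88 and 10.17 in the HPYD arrays, with a difference of -1.06 (standard error 0.20) over all arrays and -1.18 without HPYD group 3 (adjusted p 0.86 and 0.449 from limma). Wdfy1, an endosomal adaptor protein, was 8.12, 7.84 and 8.10 in the control arrays and 7.01, 7.13 and 7.64 in the HPYD arrays, with a difference of -0.95 (standard error 0.11) and an adjusted p of 0.0959 without HPYD group 3. In all 3 genes the HPYD arrays lay wholly below the control arrays, for which an exact permutation test (two-sided) gives p = 0.1, its lower limit with 3 arrays against 3. The model arrays were low as well, at 7.98, 7.96 and 8.15 for Nnt, 10.44, 9.71 and 10.39 for Gabra2 and 7.07, 7.22 and 7.01 for Wdfy1. As background, C57BL/6J mice carry a deletion within Nnt and an intronic variant that lowers Gabra2, so both genes differ between substrains of mice. The control mice, given as C57/6J, held the higher values of both genes. Whether the substrain differed between the groups was not tested.

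Over all arrays, the genes with the smallest p were those in which HPYD group 3 sided with the other HPYD arrays. The lead was Gata3, a transcription factor of midbrain and brainstem neurons and of lymphocytes, at 6.16, 5.92 and 5.48 in the control arrays and 6.98, 7.39 and 7.02 in the HPYD arrays, a difference of 1.28 (standard error 0.22, adjusted p 0.86 from limma). It was 6.20, 6.39 and 5.70 in the model arrays. Lrmda, a melanocyte differentiation gene, differed by 0.74, Cabp7, a calcium-binding protein, by 0.84, and Cd9, a tetraspanin raised in microglia near plaques, by 0.65. Dnase2a, the lysosomal DNase, differed by 0.40, and Ctsl, the lysosomal protease cathepsin L, by 0.28. Slc29a3, a lysosomal nucleoside transporter, differed by 0.33 and Trim30d, of a family of interferon-induced proteins, by 0.46. In each of these 8 genes all 3 HPYD arrays lay above all control arrays. On the lower side, next to Gabra2, Nnt and Wdfy1, stood Mir491 at -0.32, Efcab7 at -0.25, the olfactory receptor Olfr1152 at -0.26, the germ cell helicase Ddx4 at -0.74 and Hars, the histidyl-tRNA synthetase, at -0.25. All 8 lay below control in all 3 HPYD arrays, and all 16 genes had an adjusted p of 0.86 from limma. The 16 were picked for the smallest p in this same comparison, so their separation largely follows from that choice and is no further evidence. Ddx4, Olfr1152 and Efcab7 had control values of 4.81 to 6.18, below every array's median.

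Genes of plaque-associated microglia were higher without HPYD group 3. The means of all 23 measured members were above control, where 47.5% of all genes were, by a median of 0.76 against -0.01 over all genes. Of the 23, 2 passed the adjusted threshold (0.0401% of all genes) and 14 were higher at an unadjusted p under 0.05 (1.53% of all genes). The list's median was 0.74 and 0.78 in HPYD group 1 and 2, -0.15 in HPYD group 3, and between -0.05 and 0.00 in the control arrays. Ccl6, a chemokine of myeloid cells, was 6.47, 6.51 and 6.42 in the control arrays, 7.82 and 8.24 in HPYD group 1 and 2, but 6.11 in HPYD group 3. It rose by 1.57 (standard error 0.14), or 2.96-fold, with an adjusted p of 0.0232 from limma. Tyrobp, the adaptor through which TREM2 signals, was 9.35, 9.42 and 9.47 in the control arrays, 10.68 and 10.81 in HPYD group 1 and 2, but 8.54 in HPYD group 3, and it rose by 1.33 (standard error 0.13, adjusted p 0.0373), or 2.51-fold. Both genes passed only without HPYD group 3, and Ccl6 passed in 2 and Tyrobp in 1 of the 8 fits that left out a further array, with adjusted p up to 0.231 and 0.623. In those fits the number of genes past the threshold was 4 without any 1 control array, without HPYD group 2 or without model group 1, 5 without HPYD group 1 or model group 3, and 18 without model group 2. Without the arrays with raised muscle and granulocyte genes (model group 1 and 2 and HPYD group 2), which leaves HPYD group 1 as the only HPYD array, assumed to vary like the others, 0 genes passed and 1381 had an unadjusted p under 0.05. That setting was chosen after seeing the data. With only the HPYD and control arrays in the fit, Tyrobp passed and Ccl6 did not, and under the analysis of variance with Student-Newman-Keuls test neither did. In the setting that left HPYD group 1 as the only HPYD array, the median of the 23 microglial genes was 0.74.

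Clec7a, Cst7 and Gpnmb missed the threshold more narrowly than the other members. Clec7a, the β-glucan receptor dectin-1, was 5.01, 5.29 and 4.94 in the control arrays, 6.98 and 6.58 in HPYD group 1 and 2, but 4.93 in HPYD group 3, a difference of 1.70 without the last array (standard error 0.19, adjusted p 0.0812 from limma). Cst7, the protease inhibitor cystatin F, had the largest difference of the list, at 5.50, 5.95 and 6.40 in the control arrays and 10.04, 9.46 and 6.21 in HPYD group 1 to 3. Without HPYD group 3 its difference was 3.80 (standard error 0.49), or 13.9-fold, with an adjusted p of 0.146. Gpnmb, a transmembrane glycoprotein of phagocytes, was the member of this set in which HPYD group 3 also lay above control, at 6.61, 6.67 and 6.89 in the control and 7.84, 7.97 and 7.18 in the HPYD arrays, a difference of 1.18 (adjusted p 0.114 from limma). In all, 5 of 23 members lay above control in all 3 HPYD arrays, where 4.78% of all genes did, namely Gpnmb, Cd9, the chemokine Ccl3, the receptor tyrosine kinase Axl and the lectin Lgals3, of which the last 3 are named after their values were seen. Apoe, the lipid carrier, was 12.48, 12.47 and 12.44 in the control arrays and 12.56, 12.63 and 12.33 in the HPYD arrays, and Trem2 was 7.89, 7.86 and 8.03 and 9.14, 8.94 and 7.61. Both are likewise named after their values were seen. Over all arrays 21 of the 23 members were higher, by a median of 0.51, with 0 past the adjusted threshold.

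For Ccl6, Clec7a and Cst7, which moved together in HPYD group 1 and 2 by the largest amounts among the members named above, the promoter from 250 bases before to 50 after the start is shown as RefSeq lists it (GRCm38.p6). Ccl6 lies at chr11:83593038-83593337 and Clec7a at chr6:129472736-129473035, both on the minus strand, and Cst7 at chr2:150570165-150570464 on the plus strand. Clec7a has 2 listed windows, of which 1 is shown. Capitals mark AGGAAG or its reverse complement, letters found within the longer site of the myeloid factor PU.1.
Ccl6: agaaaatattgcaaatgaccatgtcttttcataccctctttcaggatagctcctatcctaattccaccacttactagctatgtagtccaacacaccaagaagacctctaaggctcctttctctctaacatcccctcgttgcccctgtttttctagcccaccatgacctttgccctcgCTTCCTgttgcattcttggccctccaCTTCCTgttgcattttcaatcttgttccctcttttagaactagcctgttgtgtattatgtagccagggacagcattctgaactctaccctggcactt
Clec7a: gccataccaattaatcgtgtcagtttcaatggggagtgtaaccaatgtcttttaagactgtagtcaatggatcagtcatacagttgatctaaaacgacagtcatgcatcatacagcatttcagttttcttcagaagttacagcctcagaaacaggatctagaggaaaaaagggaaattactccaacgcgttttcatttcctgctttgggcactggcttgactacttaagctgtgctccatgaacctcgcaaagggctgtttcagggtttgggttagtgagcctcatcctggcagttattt
Cst7: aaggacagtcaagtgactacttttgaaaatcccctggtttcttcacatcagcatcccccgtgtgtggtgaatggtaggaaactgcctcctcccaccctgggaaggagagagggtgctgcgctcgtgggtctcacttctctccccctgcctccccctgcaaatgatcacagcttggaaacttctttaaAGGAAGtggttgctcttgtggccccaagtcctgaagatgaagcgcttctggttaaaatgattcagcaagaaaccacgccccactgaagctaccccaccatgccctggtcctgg
The longer letters GAGGAAG, searched on both strands, had 0 matches in the 3 windows. The 6 letters AGGAAG, chosen after the sequences were seen and part of the longer motif, had 2 matches on the other strand in Ccl6, 1 match on the printed strand in Cst7 and 0 in Clec7a. Over all 27025 genes with a window, 13.5% held GAGGAAG and 35.1% AGGAAG. Of the 19 listed microglial genes with a window, 4 (21.1%) and 9 (47.4%) did. A match is a run of letters and not a binding site.

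Genes of homeostatic microglia, all 17 of those measured, were also higher without HPYD group 3, with a median of 0.27 and 3 at an unadjusted p under 0.05, where 47.5% and 1.53% of all genes were, and 0 passed the threshold. Selplg, a selectin ligand, was 9.42, 9.40 and 9.52 in the control arrays and 9.81, 10.07 and 8.78 in the HPYD arrays, a difference of 0.49 (adjusted p 1 from limma). The first 2 HPYD arrays lay above and the last lay below all control arrays. In HPYD group 3 the list's median was -0.55, below all control arrays, and over all arrays the median was 0.00.

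Complement, Fc receptor and lysosomal genes were also higher without HPYD group 3, and 0 members passed the threshold. In the complement list 13 of 14 were higher, with a median of 0.43, 6 of them at an unadjusted p under 0.05, where 47.5% and 1.53% of all genes were. C4b, a component of the cascade, was 7.93, 7.98 and 7.79 in the control arrays, 9.04 and 9.08 in HPYD group 1 and 2, but 7.91 in HPYD group 3, a difference of 1.16 (standard error 0.14, adjusted p 0.114 from limma) without the last. C1qa, a chain of the initiating complex, differed by 0.60 and C3ar1, the C3a receptor, by 0.86. Among 15 Fc and C-type lectin receptor genes 14 were higher, with a median of 0.36. Their lead was Fcer1g, the signalling chain shared by Fc receptors, at 9.05, 9.28 and 9.34 in the control arrays and 10.01, 10.17 and 8.76 in the HPYD arrays, a difference of 0.87 (standard error 0.13, adjusted p 0.307 from limma). HPYD group 3 lay below all control arrays in Fcer1g, C1qa and C3ar1.

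All 18 lysosomal genes were higher, by a median of 0.25, with 11 at an unadjusted p under 0.05, where 47.5% and 1.53% of all genes were. The proteases Ctsz and Ctsh differed by 0.65 (standard error 0.11) and 0.50 (standard error 0.09), and limma's adjusted p was 0.449 for both. Cathepsin D, encoded by Ctsd, differed by 0.53 (standard error 0.11, adjusted p 0.759). Over all arrays 17 of 18 were still higher, by a median of 0.23, and 4, namely Ctsl, Npc2, Lgmn and Lamp1, lay above control in all 3 HPYD arrays (4.78% of all genes), the last 3 named after their values were seen. Among 14 inflammasome genes 11 were higher without HPYD group 3, by a median of 0.13, with 3 at an unadjusted p under 0.05. Of all genes 47.5% and 1.53% were.

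In the median of the interferon genes, HPYD group 3 lay on the same side of control as the other HPYD arrays. Of 25 measured interferon response genes (type I), 22 were higher over all arrays and 23 without HPYD group 3 (54.3% and 47.5% of all genes). Their medians were 0.23 and 0.21, with 0 past the threshold. The list's median was 0.16, 0.39 and 0.17 in HPYD group 1 to 3 and between -0.03 and 0.01 in the control arrays. In 13 of 25 genes all 3 HPYD arrays lay above all control arrays, where 4.78% of all genes did. In the model arrays the list's median was 0.33 and 0.55 in group 1 and 2, in which, as in HPYD group 2, granulocyte and muscle genes were raised, and 0.12 in group 3. Ifit3, an interferon-induced antiviral protein, was 8.19, 8.39 and 8.21 in the control and 8.91, 9.14 and 9.21 in the HPYD arrays, a difference of 0.82 (standard error 0.20, adjusted p 0.86 from limma). Ifit1, which binds viral RNA, was 6.88, 6.90 and 6.59 and 7.19, 7.54 and 7.50, a difference of 0.62 (standard error 0.16), with the same adjusted p. Bst2, the virus-tethering protein tetherin, differed by 0.27. The highest HPYD array was group 3 in Ifit3 and group 2 in Ifit1 and Bst2, and no HPYD array reached down to control in any of the 3 genes.

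Of 14 antigen presentation genes, 13 were higher over all arrays and 14 without HPYD group 3, with medians of 0.20 and 0.26. Of all genes 54.3% and 47.5% were. In 4 of the 14 all 3 HPYD arrays lay above control (4.78% of all genes). The list's median was 0.06 in HPYD group 1, within the control arrays at -0.02, 0.08 and -0.04, and 0.39 and 0.20 in HPYD group 2 and 3. The arrays with raised granulocyte and muscle genes held the highest medians, with 0.43 and 0.41 in model group 1 and 2 against 0.03 in model group 3, and the part of those genes was not tested. H2-Q4, a class I histocompatibility gene, was 5.97, 5.91 and 6.00 in the control and 6.27, 6.45 and 6.35 in the HPYD arrays, a difference of 0.39 (standard error 0.16). Class I genes share sequence with near-identical copies, so this value is uncertain. B2m, the light chain of class I molecules, was 11.77, 11.95 and 11.86 and 12.18, 12.15 and 11.93, and HPYD group 3 lay within the control range.

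Reactive astrocyte genes were higher without HPYD group 3, in 15 of 15 members, with a median of 0.31 and 3 at an unadjusted p under 0.05. Of all genes 47.5% and 1.53% were. The threshold was passed by 0 members. Gfap was 9.58, 9.57 and 9.34 in the control arrays and 10.47, 10.88 and 9.65 in the HPYD arrays. All 3 HPYD arrays lay above control, and the difference was 0.84 (standard error 0.29, adjusted p 0.86 from limma) over all arrays and 1.18 (standard error 0.19, adjusted p 0.449) without HPYD group 3. Serpina3n, a secreted protease inhibitor of reactive astrocytes, differed by 0.59 and Cxcl10, an interferon-induced chemokine, by 0.33 without HPYD group 3. The list's median was 0.01 in HPYD group 1 and 0.63 in HPYD group 2, so that the shift lay mainly in the second array, in which granulocyte and muscle genes were raised. In the model arrays it was 0.59 and 0.38 in group 1 and 2, where those genes were raised too, and -0.13 in group 3, where they were not. Their part in the result was not tested. Among 10 general astrocyte genes the median was 0.07.

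Myelin and oligodendrocyte genes were higher in 12 of 13 members in either fit, by a median of 0.37 over all arrays and 0.29 without HPYD group 3, but the groups overlapped. Of all genes 54.3% and 47.5% were higher. The list's median was -0.15, 0.37 and -0.21 in the control arrays and 0.47, 0.11 and 0.45 in the HPYD arrays. Mbp, myelin basic protein, was 11.90, 12.07 and 11.89 and 12.13, 12.16 and 12.07, with HPYD group 3 level with control group 2. Only 1 member without HPYD group 3, Mbp, had an unadjusted p under 0.05, and 0 passed the threshold.

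Stress genes contributed a few members in which all 3 HPYD arrays sided together. Cryab, the small heat shock protein αB-crystallin, was 11.00, 11.37 and 11.15 in the control and 11.61, 11.66 and 11.56 in the HPYD arrays, a difference of 0.44 (standard error 0.11, adjusted p 0.86 from limma). Hspa5, the chaperone BiP of the endoplasmic reticulum, was 11.57, 11.46 and 11.42 and 11.83, 11.65 and 11.60, with all HPYD arrays above control and a difference of 0.21 (standard error 0.08). In the model arrays Hspa5 was 11.54, 11.48 and 11.44. Atf4, the transcription factor of the integrated stress response, was 8.02, 7.98 and 8.20 and 8.40, 8.27 and 8.30, and its target Chac1, a glutathione-degrading enzyme, was 7.69, 7.93 and 7.89 and 8.07, 8.11 and 8.16. Their differences were 0.25 and 0.28 (standard errors 0.08 and 0.07), both with an adjusted p of 0.86. Ddit4, another listed gene of this response, went the other way. It was 8.63, 8.70 and 8.63 in the control and 8.36, 8.55 and 8.27 in the HPYD arrays, all below control. The difference was -0.26 (standard error 0.10, adjusted p 0.86 from limma). Of the 16 genes of the integrated stress response 11 were higher and 5 lower over all arrays, with a median of 0.08. An unadjusted p under 0.05 was found in 4, Ddit4 among them, where 3.24% of all genes had it. Without HPYD group 3 the median was 0.06, with 2 at that level. The 12 heat shock and chaperone genes had a median of 0.08 over all arrays, with 7 higher and 3 at that level, and of 0.15 without HPYD group 3, with 11 higher and 2 at that level. The heat shock medians of HPYD group 1 to 3 were 0.26, 0.03 and -0.01, so that the first array stood apart.

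**Figure D3:**
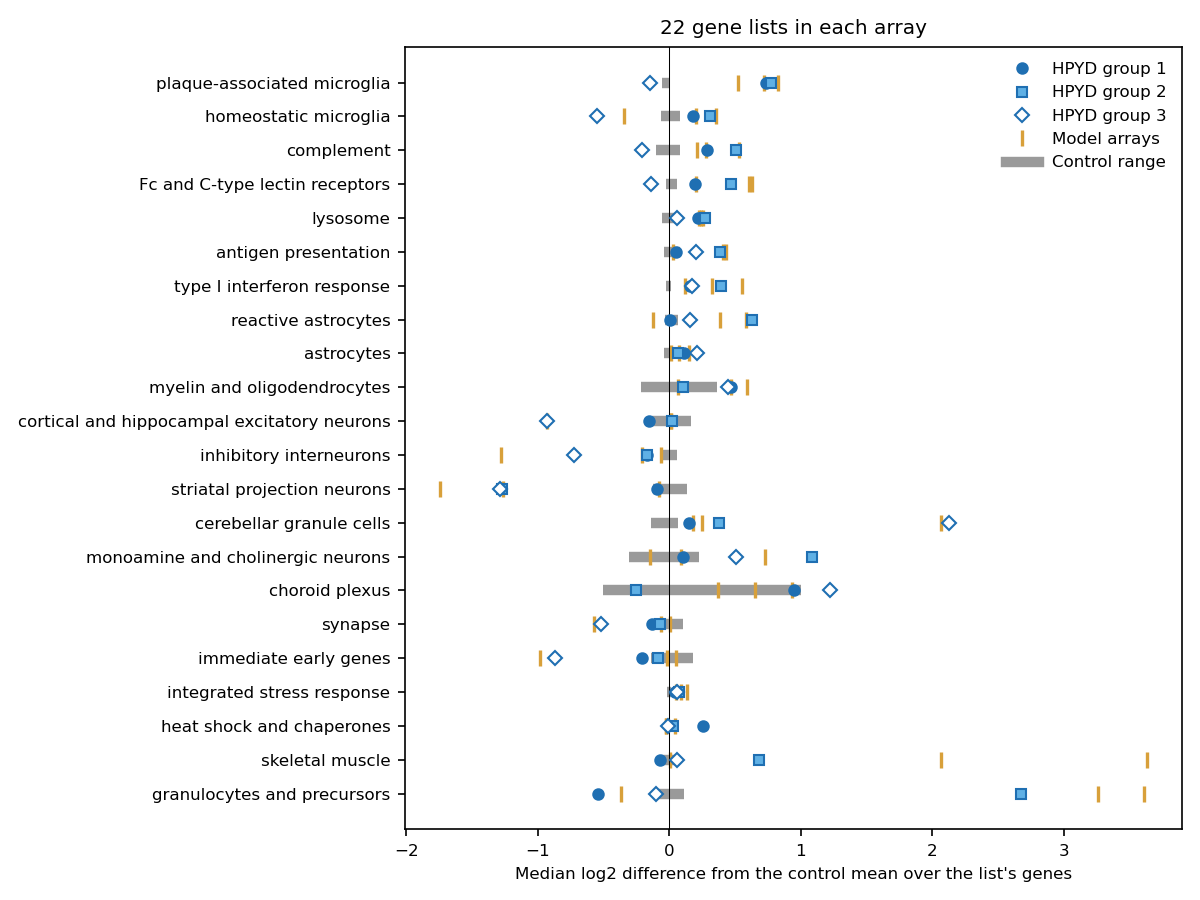
Median difference from the control mean (log2, x axis) over the measured members of 22 gene lists, for each HPYD array (blue symbols, open for HPYD group 3) and each model array (orange ticks). Grey bars span the 3 control arrays. HPYD group 3 lies apart from the other HPYD arrays in the lists of microglia, excitatory neurons and cerebellar granule cells, and together with HPYD group 2 in the list of striatal projection neurons.

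Genes of monoamine and cholinergic neurons had list medians of 0.10, 1.09 and 0.51 in HPYD group 1 to 3 against 0.22, 0.07 and -0.31 in the control arrays, so that HPYD group 1 lay within control. Of the 12 measured, 9 were higher in either fit, by a median of 0.91 over all arrays and 0.88 without HPYD group 3. Of all genes 54.3% and 47.5% were higher. An unadjusted p under 0.05 was found in 5 and 4 members, where 3.24% and 2.26% of all genes had it, and 0 passed the threshold. Slc6a3, the dopamine transporter, was 7.51, 6.81 and 6.31 in the control arrays, 9.22 and 9.72 in HPYD group 1 and 2, but 6.70 in HPYD group 3, a difference of 2.59 without the last (standard error 0.46, adjusted p 0.449 from limma). Th, the rate-limiting enzyme of dopamine synthesis, was 8.33, 8.01 and 6.99 and 8.71, 9.19 and 8.42, and Ddc, the next enzyme, was 7.94, 7.89 and 6.95 and 8.37, 8.35 and 8.52. In both genes all 3 HPYD arrays lay above all control arrays, with differences of 1.00 (standard error 0.39) and 0.82 (standard error 0.27) over all arrays. Tph2, the serotonin-synthesising enzyme, named after its values were seen, was 5.01, 5.06 and 5.01 in the control and 5.16, 7.83 and 8.96 in the HPYD arrays, so that HPYD group 1 lay close to control. The 3 members with lower means, Chat, Slc5a7 and Slc18a3, named after their values were seen, belong to cholinergic neurons, a split of the list made after the values were seen. Chat, the acetylcholine-synthesising enzyme, was 7.15, 6.82 and 6.84 in the control and 6.80, 6.45 and 6.73 in the HPYD arrays. The model arrays held 7.80, 6.59 and 6.70 for Slc6a3 and 5.32, 7.92 and 5.41 for Tph2. Dopamine and serotonin neurons lie in small nuclei of the midbrain and brainstem, and whether the piece of brain sampled differed between arrays was not tested.

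Other regional genes varied widely between the HPYD arrays. All 11 measured genes of striatal projection neurons were lower in either fit, by a median of -0.91 over all arrays. Of all 19938 genes 9119 were lower over all arrays and 10452 without HPYD group 3. However, the list's median was -0.09 in HPYD group 1 and -1.27 and -1.29 in group 2 and 3. Rgs9, a regulator of striatal dopamine receptor signalling, was 10.01, 9.86 and 10.07 in the control and 9.80, 8.03 and 8.15 in the HPYD arrays, and Penk, the enkephalin precursor, was 12.54, 12.55 and 12.76 and 12.47, 11.35 and 12.08. All HPYD arrays lay below control in both genes, HPYD group 1 only narrowly. All 10 genes of cerebellar granule cells were higher in either fit (54.3% and 47.5% of all genes), with list medians of 0.15, 0.38 and 2.13 in HPYD group 1 to 3. Gabra6, a receptor subunit of these cells, was 5.23, 4.85 and 6.14 in the control arrays and 4.54, 8.20 and 11.29 in the HPYD arrays, which enclosed the control range. Tbr1, a transcription factor of cortical neurons, named after its values were seen, was 9.72, 9.77 and 10.33 and 9.56, 9.66 and 7.34. The 14 excitatory neuron genes it belongs to had list medians of -0.15, 0.02 and -0.93, and the 15 interneuron genes had -0.17, -0.17 and -0.73. Choroid plexus genes swung within both groups, with Ttr, the thyroxine carrier made there, at 9.26, 13.15 and 10.84 in the control and 13.20, 9.30 and 13.15 in the HPYD arrays. The striatal, cerebellar, excitatory and choroid plexus lists had 0 members with an unadjusted p under 0.05 in either fit. Thalamic genes had list medians of 0.84, -0.38 and -0.34 against -0.14, 0.76 and -0.61 in the control arrays.

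Synaptic and activity genes were lower mainly through HPYD group 3. Over all arrays 16 of 17 synaptic genes were lower, by a median of -0.24, and 18 of 20 immediate early genes by -0.40. Of all 19938 genes 9119 were lower over all arrays and 10452 without HPYD group 3. Without HPYD group 3 the medians were -0.08 and -0.15, with 13 of 17 and 19 of 20 lower and 0 members of either list at an unadjusted p under 0.05. In HPYD group 3 itself they were -0.52 and -0.87. In model group 2, the other array with high cerebellar granule cell genes, they were -0.57 and -0.98, and the cerebellar medians of these arrays were 2.13 and 2.07. The part of that regional difference was not tested. In 6 of 17 synaptic and 4 of 20 immediate early genes all 3 HPYD arrays lay below control (4.74% of all genes). Npas4, an activity-dependent transcription factor, was 8.68, 8.62 and 8.38 in the control and 8.25, 7.81 and 6.68 in the HPYD arrays, a difference of -0.98 (standard error 0.40, adjusted p 0.86 from limma). Cplx2, which regulates vesicle fusion, was 10.78, 10.61 and 10.98 and 10.55, 10.58 and 10.27. All HPYD arrays lay below all control arrays in both genes, and HPYD group 3 was the lowest.

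Some hormone genes of the pituitary and hypothalamus were among the largest differences, although 9 of the 12 measured had lower means in either fit. The list's median was -0.51 over all arrays and -0.38 without HPYD group 3. Crh differed by -0.19 (standard error 0.06) without HPYD group 3, with an unadjusted p of 0.018 from limma. Avp was 9.22, 9.11 and 7.29 in the control and 7.90, 7.45 and 7.86 in the HPYD arrays, within the control range. Pomc, the precursor of melanocortins and endorphin, was 7.11, 7.31 and 6.74 in the control and 8.57, 10.67 and 8.80 in the HPYD arrays, a difference of 2.57 (standard error 1.00, adjusted p 1 from limma) without HPYD group 3. Prl, prolactin, was 6.38, 5.56 and 9.02 and 9.46, 10.49 and 11.95, a difference of 3.65 (standard error 1.24, adjusted p 0.86) over all arrays. In both genes the HPYD arrays lay above control, and in Prl the control arrays themselves were far apart. The model arrays held 10.25, 7.62 and 6.93 for Pomc and 13.26, 11.10 and 9.03 for Prl.

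**Figure D4:**
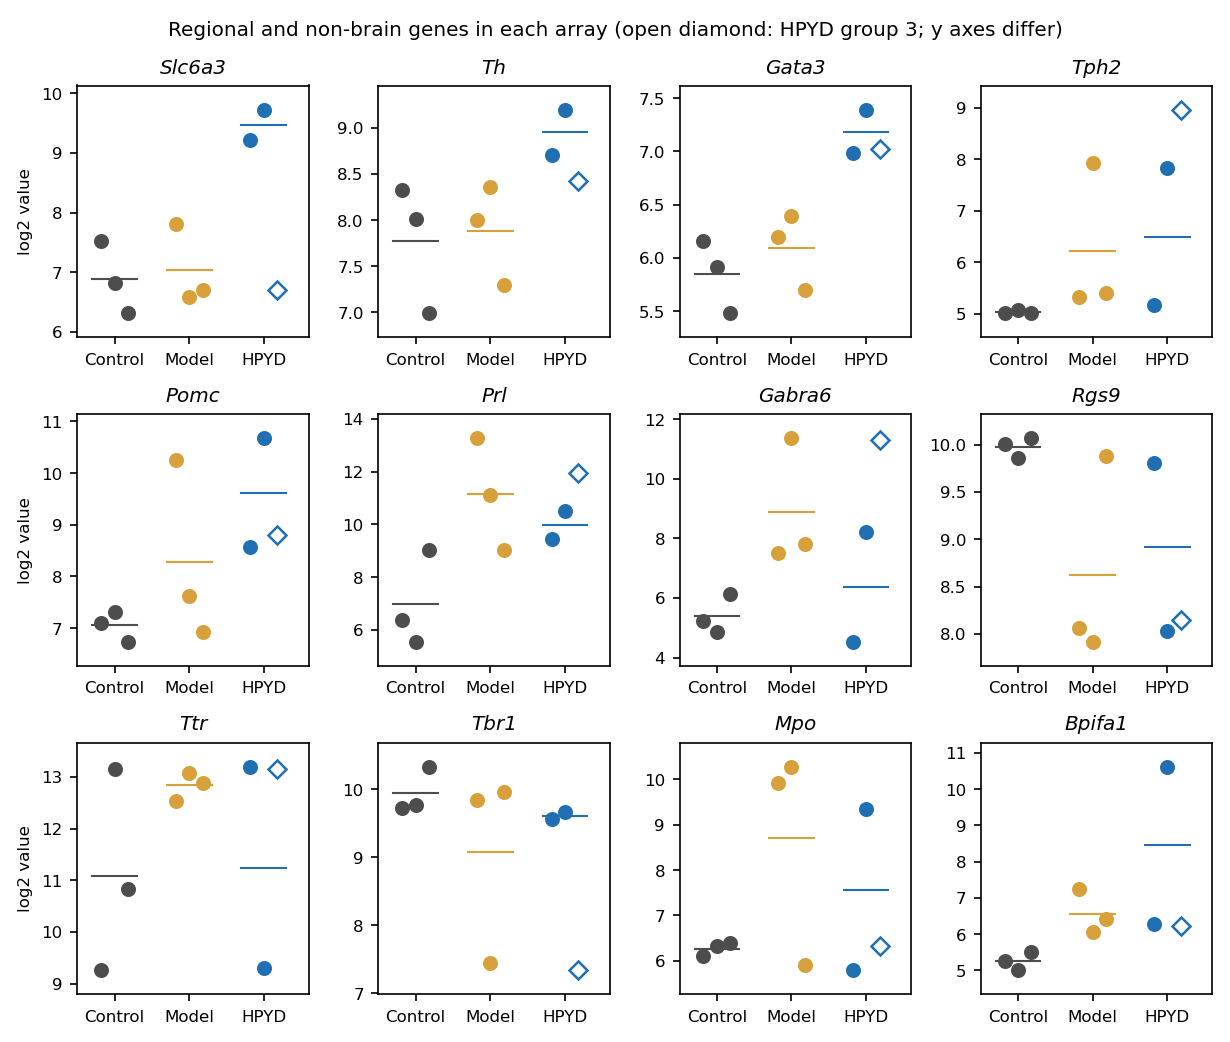
Log2 values of 12 genes of brain regions, pituitary, choroid plexus, granulocytes and airway in each of the 9 arrays, by group. Points are arrays, the open diamond is HPYD group 3, and lines are group means without it. The HPYD arrays lie together above control in Th, Gata3, Pomc and Prl and apart from each other in Tph2, Gabra6, Rgs9, Ttr, Tbr1, Mpo and Bpifa1.

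Genes from outside the brain accounted for other large values, in single arrays. Bpifa1, a secreted protein of the nasal and airway lining, was 5.26, 5.01 and 5.51 in the control and 6.29, 10.61 and 6.23 in the HPYD arrays, and Reg3g, an antimicrobial lectin of epithelia, was 4.19, 4.66 and 4.91 and 5.35, 10.25 and 6.27. All HPYD arrays lay above control in both genes, HPYD group 2 by far the most. The model arrays held 7.24, 6.05 and 6.40 for Bpifa1 and 7.01, 6.43 and 4.98 for Reg3g. The differences from control without HPYD group 3 were 3.19 (standard error 1.09) and 3.22 (standard error 1.30), and limma's adjusted p was 1 for both. All 17 granulocyte genes had a higher mean without HPYD group 3 (47.5% of all genes), with list medians of -0.54, 2.67 and -0.10 in HPYD group 1 to 3. Mpo, the granule enzyme myeloperoxidase, was 5.79, 9.34 and 6.33 in these arrays against 6.09, 6.32 and 6.38 in the control arrays. Of the 27 skeletal muscle genes 23 were higher without HPYD group 3 (47.5% of all genes), with list medians of -0.07, 0.68 and 0.06. Myl1, a muscle myosin light chain, was 5.50, 8.81 and 5.51 against 5.77, 5.73 and 5.90. In neither gene did HPYD group 1 or 3 exceed every control array. With the muscle level of each array as a covariate, the fit without HPYD group 3 gave 12 genes past the threshold, including all 8. The medians of 7 erythroid and 13 lymphocyte genes were -0.14, 0.73 and 0.20, and 0.01, 0.23 and 0.00, and that of 21 cell cycle genes was -0.03, 0.30 and 0.10. Ccl6, Tyrobp, Clec7a and Cst7 lay above all control arrays in HPYD group 1, in which the granulocyte and muscle medians lay below those of all control arrays. That is 1 array, and the genes were named for their small p in a fit that includes it. What raised them was not tested.

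The 18 genes that the study took to RT-qPCR had been picked from these arrays, so their direction here is not independent evidence. Over all arrays 17 were higher (54.3% of all genes), by a median of 0.16. Without HPYD group 3, 16 were higher (47.5% of all genes), by 0.18. Of these, 3 had an unadjusted p under 0.05 (1.53% of all genes) and 0 passed the threshold. Naip2, an inflammasome sensor of bacterial proteins, was 5.40, 5.50 and 5.38 in the control and 6.01, 5.96 and 5.33 in the HPYD arrays, a difference of 0.55 (standard error 0.14, adjusted p 1 from limma) without HPYD group 3. Ptprc, the leukocyte surface marker CD45, was 6.41, 6.30 and 6.30 and 6.83, 7.16 and 6.44, with all HPYD arrays above control. Clec5a, a lectin receptor of myeloid cells, was 5.73, 5.49 and 5.76 and 5.92, 6.16 and 5.51.

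Without HPYD group 3 the medians of metabolic genes were 0.05 over 18 genes of fatty acid oxidation, 0.12 over 19 of lipid synthesis and lipolysis, -0.05 over 16 of cholesterol synthesis and uptake, -0.01 over 24 of the respiratory chain and -0.01 over 15 of glycolysis. Of the 19 lipid synthesis and lipolysis genes 15 were higher over all arrays (54.3% of all genes), by a median of 0.14. In 6 all 3 HPYD arrays lay above control (4.78% of all genes). The list's medians were 0.08, 0.08 and 0.17 in HPYD group 1 to 3. Without HPYD group 3 a single member of these lists had an unadjusted p under 0.05, namely Plin4, a lipid droplet coat protein, at 7.35, 7.39 and 6.92 in the control and 7.96, 8.07 and 7.61 in the HPYD arrays. All 3 HPYD arrays lay above control, with a difference of 0.66 (standard error 0.16, adjusted p 0.86 from limma) over all arrays. In the redox list of 21 genes the median was 0.06, and Nnt was the only member that passed. Of 15 genes of tau and its kinases, 14 were lower over all arrays and 13 without HPYD group 3 (9119 and 10452 of all 19938 genes), with medians of -0.13 and -0.06. In 5 of them all 3 HPYD arrays lay below control (4.74% of all genes) and in 6 the first 2 did (8.09%), while 0 members had an unadjusted p under 0.05 without HPYD group 3. The list's median was -0.07, -0.07 and -0.23 in HPYD group 1 to 3. Brain endothelium, oligodendrocyte precursors, collagens and housekeeping genes had medians of -0.02, 0.01, 0.06 and 0.00.

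Set directly against the model arrays, the HPYD arrays showed 0 genes (0%) past an adjusted p of 0.05 with or without HPYD group 3, and 265 (1.33%) at an unadjusted p under 0.05 without it. Values against control and against the model group share the HPYD arrays, and values of both groups against control share the control arrays. For the genes that passed against control, HPYD minus model was -0.09 (95% interval -0.41 to 0.24) for Ccl6, 0.23 (-0.07 to 0.54) for Tyrobp, 0.02 (-0.13 to 0.17) for Prnp and -0.08 (-0.27 to 0.11) for Nnt, all without HPYD group 3. For C4b it was 0.36 (0.04 to 0.69) and for Cst7 0.66 (-0.48 to 1.81). The median over the 23 genes of plaque-associated microglia was 0.09. Other lists were lower than in the model arrays, with medians of -0.29 over the 18 RT-qPCR genes, which the study picked from these arrays, -0.18 over the Fc and lectin receptor genes and -0.32 over the cell cycle genes, and of -0.31, -0.40 and -0.40 over all arrays. The granulocyte and muscle medians were -1.03 and -1.43, with those genes raised in 2 of 3 model arrays and in 1 HPYD array, and their part in the other lists was not tested. Among single genes, larger differences stood in Slc6a3, at 2.44 (1.37 to 3.52), and in Gata3, at 1.09 (0.47 to 1.71), and limma's adjusted p was 1 for both. Itm2a, a membrane protein of the BRICHOS family that was among the genes of smallest p below control without HPYD group 3, differed by -0.43 from control (adjusted p 0.471 from limma) and by -0.35 (-0.54 to -0.16) from model. The intervals of Ccl6, Tyrobp, Prnp, Nnt and Cst7 included 0, and those of C4b, Slc6a3, Gata3 and Itm2a did not. Further intervals without 0, named after their values were seen, lay on both sides. Chac1 was below model at -0.29 (-0.48 to -0.09), as were Casp4 at -0.29 (-0.57 to -0.01) and Fcgr4 at -0.54 (-1.05 to -0.04). Scn9a was above model at 0.47 (0.13 to 0.81), as was Hspa5 at 0.25 (0.07 to 0.44). In Chac1, Casp4, Fcgr4 and Scn9a the HPYD mean lay between the control and model means.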

How the data were processed

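Brain RNA was hybridised to 9 Mouse Gene 1.0 ST GeneChips, 3 per group. The authors deposited processed log2 values of 35556 probe sets, from 2.37 to 14.01. MAS5 is the tool in the submitters' processing notes, with no version. How the values were normalized was not given in the labels or methods used here. Probe sets were named from GEO's platform annotation: 21789 carried a single symbol, 1621 several and 12146 were unnamed here. For each of 19938 genes the probe set with the highest mean over the 9 arrays was used.

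Groups were compared with limma 3.58.1 in R 4.3.3 (moderated test over the 3 groups, Benjamini-Hochberg adjustment), with and without HPYD group 3, and the script was tested on simulated data. Confidence intervals are those of the fit at 95%. Gene members and lists were chosen with earlier results of these data known. The genes named were those past the threshold, the 8 of smallest p per direction in each fit, the 6 of largest difference per direction at an unadjusted p under 0.05, up to 4 of smallest p per list, label checks and the study's RT-qPCR genes. List values are medians over measured members. Where several probe sets name a gene (999 genes), only 1 was used.

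The alternatives were a shift to one median, quantile normalization, leaving out the dimmest genes, an intensity trend, robust variances, array weights, only the HPYD and control arrays, a replicate block, the mean of a gene's probe sets, the muscle level as a covariate, the analysis of variance with Student-Newman-Keuls test that the methods name, another threshold and leaving out each array. Leaving out the arrays with raised muscle and granulocyte genes, and fitting all probe sets, were added after seeing the data. The number of arrays limits the precision.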

Additional observations from a re-analysis of the deposited data

How the results depend on the processing

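Having 3 arrays a group, or 2 without HPYD group 3, limits what any test here can show. The fit without HPYD group 3 gave 8 genes past an adjusted p of 0.05 from limma. All 8 were kept, with additions, under arrays shifted to one median (9 genes) or quantile normalization (9), array weights (12) and the skeletal muscle level as a covariate (12), and the same 8 passed with an intensity trend, robust variance estimates or the mean of a gene's probe sets. The count moved to 5 when the dimmest genes by mean level were left out, which removed the Y-linked genes from the test, to 5 with only the HPYD and control arrays in the fit, where Ccl6, Nnt and Prnp were lost, to 2 under the analysis of variance with Student-Newman-Keuls test that the methods name, where only Xist and Uty were kept, and to 0 without model group 1 and 2 and HPYD group 2. The unadjusted count of 451 became 761 with only the HPYD and control arrays, 267 under Student-Newman-Keuls and 1381 without those 3 arrays. With all arrays, the unadjusted count of 646 became 1375 with array weights and 241 under Student-Newman-Keuls. The cause of these shifts was not tested.

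With each array left out in turn, genes past the threshold numbered 0 to 8 starting from all arrays, the 8 being those without HPYD group 3, and 4 to 18 starting without HPYD group 3. Xist, Uty, Eif2s3y and Kdm5d were kept in each of the latter fits. Without model group 2 all 8 were kept and 10 more passed, Trem2, Clec7a, Cst7, C4b, C3ar1, Gpnmb and Gabra2 among them. Unadjusted counts ranged from 340 to 1807 and from 277 to 1465, and counts of genes whose arrays did not overlap from 2923 to 6117 and from 4356 to 11162. Fewer arrays separate more often under random labels, so these last counts cannot be compared with those of the full fits.

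Replicate numbers did not pair the arrays: the deviations of same-numbered HPYD and control arrays correlated at -0.03, -0.21 and -0.11. With the replicate number as a block, 0 genes passed and 520 had an unadjusted p under 0.05 with all arrays, and 4 and 320 without HPYD group 3, the 4 being Xist, Uty, Eif2s3y and Kdm5d.

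Among the genes whose differences are given, the direction turned with all arrays in C1qa and Selplg. C1qa ranged from -0.13 to 0.60 and Selplg from -0.16 to 0.49 with each array left out, both highest without HPYD group 3, and the values without HPYD group 1 and HPYD group 2 were -0.13 and -0.01 for C1qa and -0.03 and -0.16 for Selplg. No direction turned among the genes of the fit without HPYD group 3 under the alternatives run. List medians were less stable. They counted as moved when they changed by at least the pooled SD of the list's array medians within groups. Without HPYD group 3, 47 moved and 305 did not with a further array left out, and 44 and 308 under the other settings. With all arrays these were 10 and 386, and 6 and 302.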

Other observations

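Over all probe sets in place of genes, a setting added after seeing the data, limma gave 0 past an adjusted p of 0.05 with all arrays and 6 without HPYD group 3. A single one of the 6 lay outside the gene table, probe set 10608138, unnamed here. It was 8.46, 8.66 and 8.66 (log2) in the control arrays, 4.57, 4.19 and 4.33 in the model arrays and 4.28, 4.32 and 8.58 in HPYD group 1 to 3, a difference of -4.29 (standard error 0.12, adjusted p 0.000191 from limma) without HPYD group 3. Its pattern over the arrays was that of Uty, Eif2s3y and Kdm5d.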
